A study of Mus musculus with 4 samples.

Results

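The genes described here are 10 genes of the inflammasome and pyroptosis pathway, Nlrp3, Aim2, Nlrc4, Nlrp1b, Naip2, Naip5, Pycard, Casp1, Casp4 and Gsdmd, taken by gene name from the 54532 genes of a read count table. They were measured by mRNA sequencing of CD11b+Ly6g+ cells, the surface phenotype by which myeloid-derived suppressor cells (MDSCs) of the granulocytic kind are sorted, recruited to the lungs of male C57BL/6 mice aged 6 to 8 weeks. All mice carried the pre-metastatic niche (PMN) model: melanoma-conditioned medium (MCM, 300 μL per mouse) was given intraperitoneally for 10 days, B16F10 melanoma cells were injected into the tail vein on day 7, and the lungs were taken on day 10. The Ctrl group received no peptide, and the other 3 groups received TP5 (thymopentin, an immunomodulatory pentapeptide), sFD17 or FR17 subcutaneously at 40 μM/kg per day from day 3. FR17 joins TP5 through a linker that matrix metalloproteinase 2 cuts to a peptide that then assembles into a sheet-like layer, and sFD17 carries the TP5 residues in scrambled order, so it keeps the assembly without the TP5 sequence. Each group gave 1 library, made from the pooled sorted cells of 10 to 12 mice, so no difference between groups has a replicate check, mouse-to-mouse spread is not seen, and no p-value is given.

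Inflammasomes are cytosolic complexes in which a sensor protein, on meeting a microbial or damage signal, gathers the adaptor ASC and the protease caspase-1. Active caspase-1 matures interleukin-1β and interleukin-18 and cuts gasdermin D, whose N-terminal part forms the plasma membrane pores of pyroptosis, and the non-canonical branch reaches gasdermin D through mouse caspase-11, the product of Casp4, after contact with cytosolic lipopolysaccharide. Neutrophils, the lineage closest to granulocytic MDSCs, are known to hold these components and to release interleukin-1β. Much of the pathway is set by cleavage and assembly of proteins, which mRNA levels do not report.

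The libraries held from 15543071 to 19638228 counts on genes, and the 16367 genes that reached 10 counts in any library entered the comparisons, all 10 inflammasome genes among them. Levels are given as CPM, counts per 1000000 counts of the library after scaling by edgeR's TMM factors (trimmed mean of M-values), which ranged from 0.849 in sFD17 to 1.17 in FR17. Changes are log2 differences of these levels, or ratios with their exact 95% interval, and the intervals and all limits cover counting error only. A gene was counted as past 2-fold or past 1.5-fold by its log2 fold change. With library size alone as the scale, the median gene would stand at -0.23 on the log2 scale in sFD17 and at 0.26 in FR17 against Ctrl, so changes are read relative to the TMM scale and 18 of the 60 fold changes of the 10 genes have the other sign on library size alone. The 3 comparisons with Ctrl share the Ctrl library and are given side by side. Of the 2 genes of the sort, Itgam, which encodes CD11b, stood at 381, 370, 433 and 302 CPM and Ly6g at 73.1, 97.8, 111 and 90.7 CPM in Ctrl, TP5, sFD17 and FR17. Both were present in every library.

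The promoters of Nlrp3 and Casp4, the genes past 2-fold between FR17 and sFD17, of Pycard, which lay in the opposite direction, and of Gbp5, a regulator of the pathway with one of the largest differences in sFD17, are shown so that the genes with the clearest differences can be set side by side. They were chosen after their values were seen. Each runs from 250 bases before to 50 bases after a transcription start in RefSeq (GRCm38.p6), 5′ to 3′ on the gene's strand: chr11:59541319-59541618 on the plus strand for Nlrp3, chr9:5308599-5308898 on the plus strand for Casp4, chr7:127993818-127994117 on the minus strand for Pycard and chr3:142496684-142496983 on the plus strand for Gbp5. Capitals mark matches, on either strand, to the core of the interferon-stimulated response element (ISRE, searched as GAAANNGAA), to the GAS element (searched as TTCNNNGAA, which reads the same on both strands) and to the NF-κB element known as kappaB.
Nlrp3: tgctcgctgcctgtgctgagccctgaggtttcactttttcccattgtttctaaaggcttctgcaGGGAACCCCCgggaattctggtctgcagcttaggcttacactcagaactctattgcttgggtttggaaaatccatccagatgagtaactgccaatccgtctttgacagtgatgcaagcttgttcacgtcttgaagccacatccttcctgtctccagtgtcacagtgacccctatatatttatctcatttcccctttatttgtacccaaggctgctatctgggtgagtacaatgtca
Casp4: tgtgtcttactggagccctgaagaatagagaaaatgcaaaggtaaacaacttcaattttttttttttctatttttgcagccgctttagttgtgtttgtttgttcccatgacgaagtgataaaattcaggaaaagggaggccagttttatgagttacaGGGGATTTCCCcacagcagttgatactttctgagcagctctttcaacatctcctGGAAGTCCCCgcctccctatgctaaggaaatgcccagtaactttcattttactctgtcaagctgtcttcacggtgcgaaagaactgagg
Pycard: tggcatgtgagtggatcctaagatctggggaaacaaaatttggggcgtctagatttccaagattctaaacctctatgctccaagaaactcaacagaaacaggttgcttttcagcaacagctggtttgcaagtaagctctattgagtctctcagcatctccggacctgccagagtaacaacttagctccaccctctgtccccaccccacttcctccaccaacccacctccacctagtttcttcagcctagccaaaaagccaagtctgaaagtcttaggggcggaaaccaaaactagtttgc
Gbp5: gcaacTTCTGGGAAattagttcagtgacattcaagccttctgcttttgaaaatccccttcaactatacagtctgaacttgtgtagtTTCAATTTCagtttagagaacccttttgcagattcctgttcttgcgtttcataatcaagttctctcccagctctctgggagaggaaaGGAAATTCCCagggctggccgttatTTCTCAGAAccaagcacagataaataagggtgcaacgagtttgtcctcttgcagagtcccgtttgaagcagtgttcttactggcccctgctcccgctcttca

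The Nlrp3 window held 1 kappaB match, at position -186 from the start, and the Casp4 window held 3, of which 2 overlap and the first begins at position -93. The Pycard window held no match to any of the 3 motifs. The Gbp5 window held 1 ISRE core, 2 GAS and 1 kappaB match. Of the 9 inflammasome genes with a promoter in the table, 3 held a kappaB match (Nlrp3, Casp4 and Naip5), 1 an ISRE core (Naip2) and 0 a GAS match, while the motifs occur in 8.49%, 8.53% and 8.33% of all 32544 promoters of this length. That share is per promoter, whereas a gene was counted once if any of its promoters held a match, and Nlrp3, Casp4 and Nlrp1b each have 2. A second annotated Nlrp3 start, at chr11:59542436-59542735 on the plus strand, held no match. These are matches of letters in a window and say nothing of binding.

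Per kilobase of gene, Nlrp3 stood far above the other members in every library. In Ctrl it was at 485 CPM per kb, followed by Gsdmd at 60.3, Casp1 at 30.1, Casp4 at 27.0, Aim2 at 20.2, Naip2 at 13.8, Naip5 at 11.4, Pycard at 4.46, Nlrp1b at 3.85 and Nlrc4 at 3.64 CPM per kb. Nlrp3 was 8.05 (7.72 to 8.39) times Gsdmd in Ctrl and 9.16, 12.8 and 4.94 times Gsdmd in the TP5, sFD17 and FR17 libraries. In Ctrl, Pycard and Nlrp1b, and Nlrp1b and Nlrc4, did not differ beyond counting error, and the other neighbours in the order did. In sFD17, Casp4 stood above Casp1 and Pycard was last at 2.83 CPM per kb, within counting error of Nlrc4. The places of Casp4 and Nlrp1b depend on the length used: with the longest principal transcript in place of the deposited gene length, chosen after seeing the data, Casp4 stood at 69.9 CPM per kb in Ctrl, ahead of Casp1, and at 118 in sFD17, ahead of Gsdmd at 101. Nlrp1b then stood at 5.87 in Ctrl, ahead of Pycard at 4.46, and at 4.74 in FR17, ahead of Nlrc4 at 4.15.

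**Figure D1:**
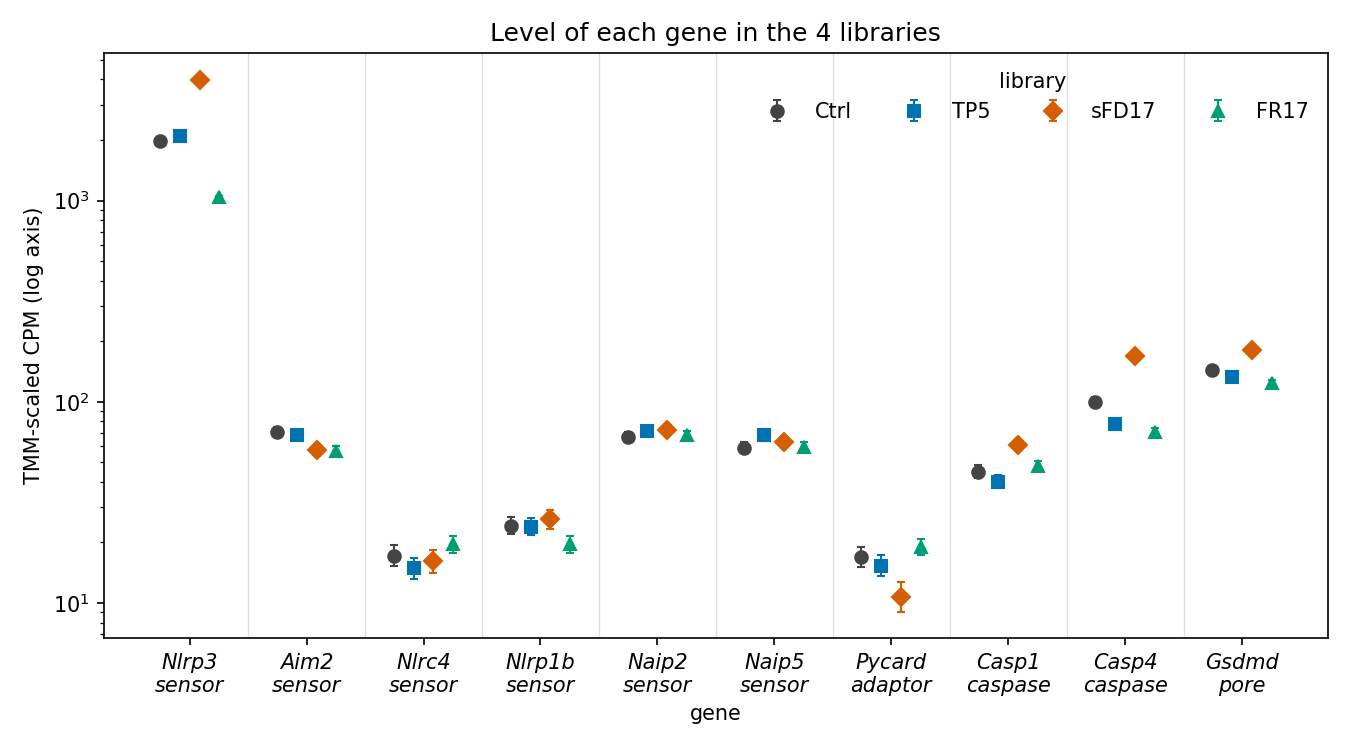
Level of the 10 inflammasome genes in the 4 libraries, as TMM-scaled CPM on a log axis, not divided by gene length; bars are exact 95% Poisson intervals, which cover counting error only. Nlrp3 lies above the other genes in every library, with sFD17 highest at 3958 and FR17 lowest at 1041 CPM, and Naip2, Naip5 and Aim2 spread least.

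The shares of the 10 genes past 2-fold and past 1.5-fold lay near or below those of all genes tested in each comparison with Ctrl. That background includes genes with few counts and is not matched to the 10 genes by depth. Against Ctrl, 0 genes passed 2-fold in TP5, 1 did so with sFD17 (Nlrp3, higher) and 0 did with FR17, beside 8.17%, 11.8% and 7.48% of all genes tested. Past 1.5-fold there were 0, 3 and 1, beside 20.8%, 29.0% and 22.7% of all genes. With at least 10 counts required in every library, 503, 914 and 447 of 13465 genes were past 2-fold, and 0, 1 and 0 of the 10. The interval of the ratio excluded 1 for 5, 7 and 5 of the 10, beside 36.9%, 44.9% and 45.7% of all genes. An interval narrows with more counts, so these shares are not matched for depth. In Ctrl the 10 genes had more counts than 61.4% (Pycard) to 99.6% (Nlrp3) of tested genes. The median log2 fold change of the 10 genes was -0.07 (TP5), 0.11 (sFD17) and -0.10 (FR17), beside 0.00, -0.03 and 0.02 for all genes, and the median size without sign was 0.12, 0.32 and 0.20, beside 0.24, 0.34 and 0.30. Among genes with at least 200 counts on average over the 4 libraries, the median size over all genes was 0.15, 0.25 and 0.23. The genes past 1.5-fold were Nlrp3, Casp4 and Pycard in sFD17 and Nlrp3 in FR17. On the TMM scale sFD17 held the highest level of 6 of the 10 genes and FR17 the lowest of 5, and this turned over on library size alone. There sFD17 held the highest level of 3 genes (Nlrp3, Casp4 and Gsdmd) and the lowest of 6 (Aim2, Nlrc4, Nlrp1b, Naip2, Naip5 and Pycard), and FR17 the highest of 5 and the lowest of 1 (Nlrp3).

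Nlrp3, the sensor of ion flux, membrane damage and crystals, was the most abundant member and the one that differed most. The gene (ENSMUSG00000032691) spans chr11:59541568-59566956 on the plus strand in GRCm38. It had 33262 counts in Ctrl, 36529 in TP5, 52234 in sFD17 and 23900 in FR17, which are 1969, 2082, 3958 and 1041 CPM. By counts it was number 61 of all genes in Ctrl. The sFD17 library was high and the FR17 library low, with TP5 next to Ctrl. The ratio to Ctrl was 2.01 (1.98 to 2.04) in sFD17 and 0.529 (0.520 to 0.538) in FR17, log2 fold changes of 1.01 and -0.92, and the log2 fold change in TP5 was 0.08. The sFD17 value lies at the 2-fold limit and under it, at 0.79, on library size alone; FR17 kept its direction there, at -0.67.

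Nlrp3 alone carried 78.4% of the counts on the 10 genes of the Ctrl library, and 80.2%, 85.8% and 68.2% of those of the TP5, sFD17 and FR17 libraries. The 10 genes together took 0.248%, 0.265%, 0.392% and 0.178% of the counts of the libraries in the same order. These shares do not depend on the scaling between libraries, and their order is that of Nlrp3 itself. The number of Nlrp3 counts per Pycard count was 116 for Ctrl, 136 for TP5, 368 for sFD17 and 54.8 for FR17, and per Casp1 count it was 43.7, 52.0, 64.7 and 21.7. The number of Nlrp3 counts per Pycard count was thus several times higher in sFD17 than in FR17, before any division by gene length. It covers Nlrp3 alone among the sensors.

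Over the 3 log2 fold changes against Ctrl, the genes with the pattern nearest to that of Nlrp3 were Pla1a, a phospholipase, Nos1ap, an adaptor of neuronal nitric oxide synthase, and Dhrs9, a short-chain dehydrogenase, out of 9798 genes with at least 50 counts in every library. Their Euclidean distances were 0.0934, 0.101 and 0.113. Dhrs9 had 2585, 3016, 4267 and 1869 counts in Ctrl, TP5, sFD17 and FR17, and its log2 fold changes were 0.17, 1.08 and -0.91. With 3 values a gene, the likeness is a description.

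The other sensors moved little on the TMM scale. Aim2, the sensor of cytosolic double-stranded DNA (ENSMUSG00000037860, chr1:173350879-173466040, plus strand), had 1193, 1201, 761 and 1308 counts in Ctrl, TP5, sFD17 and FR17, or 70.6, 68.5, 57.7 and 57.0 CPM. It was lower in both sFD17 and FR17 than in Ctrl, with log2 fold changes of -0.29 and -0.31, which were -0.51 and -0.06 on library size alone. Nlrp1b, which responds to proteolytic attack such as that of anthrax lethal factor (ENSMUSG00000070390, chr11:71153102-71230733, minus strand), had 410, 421, 344 and 450 counts, or 24.3, 24.0, 26.1 and 19.6 CPM. Of these 4 values FR17 was low on the TMM scale, at a log2 fold change of -0.31, but at -0.06 on library size alone, where sFD17 was the lowest at -0.11.

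Nlrc4, which assembles on the NAIP receptors (ENSMUSG00000039193, chr17:74425438-74459142, minus strand), had 291, 261, 213 and 450 counts, or 17.2, 14.9, 16.1 and 19.6 CPM in the same order of libraries. The interval of each of its ratios to Ctrl included 1. On library size alone its log2 fold changes were -0.16, -0.31 and 0.43 in TP5, sFD17 and FR17, the last outside its counting interval. Naip2 and Naip5 encode receptors of bacterial secretion system rod protein and of flagellin, and neighbour each other on the minus strand at chr13:100144063-100202092 (ENSMUSG00000078945) and chr13:100211739-100246323 (ENSMUSG00000071203). Naip2 had 1127, 1255, 961 and 1563 counts, or 66.7, 71.5, 72.8 and 68.1 CPM. Naip5 had 998, 1199, 832 and 1375 counts, or 59.1, 68.4, 63.0 and 59.9 CPM. Naip5 was higher in TP5 by a log2 fold change of 0.21, and the highest level of Naip2 was 1.09 times the lowest, the smallest range among the 10 genes. The 0.13 of Naip2 in sFD17 had an interval that began at 1, so that it is the weakest of the 7 counted above, and turned to -0.09 on library size alone. The Naip values are uncertain, because 19.1% of the 50-base windows of Naip2 transcripts and 36.9% of those of Naip5 occur in other genes, chiefly Naip1, Naip3 and Naip6, and how reads with several placements were counted is not given in the sources used here.

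Pycard, which encodes the adaptor ASC (ENSMUSG00000030793, chr7:127989708-127993867, minus strand), was the member that lay lowest in sFD17. It had 286 counts in Ctrl, 269 in TP5, 142 in sFD17 and 436 in FR17, or 16.9, 15.3, 10.8 and 19.0 CPM. The ratio to Ctrl was 0.636 (0.516 to 0.780) in sFD17, a log2 fold change of -0.65, and the intervals for TP5 and FR17 included 1. The low level in sFD17 kept its direction on library size alone, at -0.86. On the opposite strand the exons of Gm45205 cover 485 of the 3800 exon bases of Pycard, and Gm45205 itself had from 8 to 13 counts per library.

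The caspases were higher in sFD17 than in Ctrl, neither of them past 2-fold. Casp1, the protease of the canonical inflammasome (ENSMUSG00000025888, chr9:5298517-5307265, plus strand), had 761, 703, 808 and 1104 counts in Ctrl, TP5, sFD17 and FR17, or 45.1, 40.1, 61.2 and 48.1 CPM. Its ratio to Ctrl in sFD17 was 1.36 (1.23 to 1.502). Casp4, the neighbouring gene that encodes caspase-11 (ENSMUSG00000033538, chr9:5308828-5336783, plus strand), had 1694, 1368, 2229 and 1618 counts, or 100.3, 78.0, 169 and 70.5 CPM. Its level in sFD17 stood above the other 3 libraries and its ratio to Ctrl there was 1.68 (1.58 to 1.80), while TP5 and FR17 lay below Ctrl with log2 fold changes of -0.36 and -0.51. All of these directions against Ctrl held on library size alone, where Casp1 stood at 0.23 in sFD17 and, as its highest level, at 0.34 in FR17, and Casp4 at 0.54 in sFD17 and -0.26 in FR17.

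Gsdmd, the pore-forming target of both caspases (ENSMUSG00000022575, chr15:75862327-75867408, plus strand), had 2421, 2337, 2392 and 2835 counts, or 143, 133, 181 and 123 CPM. It was 1.27 (1.20 to 1.34) times Ctrl in sFD17, a log2 fold change of 0.34 that came to 0.12 on library size alone. In FR17 its log2 fold change was -0.21, which turned to 0.03 on library size alone.

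**Figure D2:**
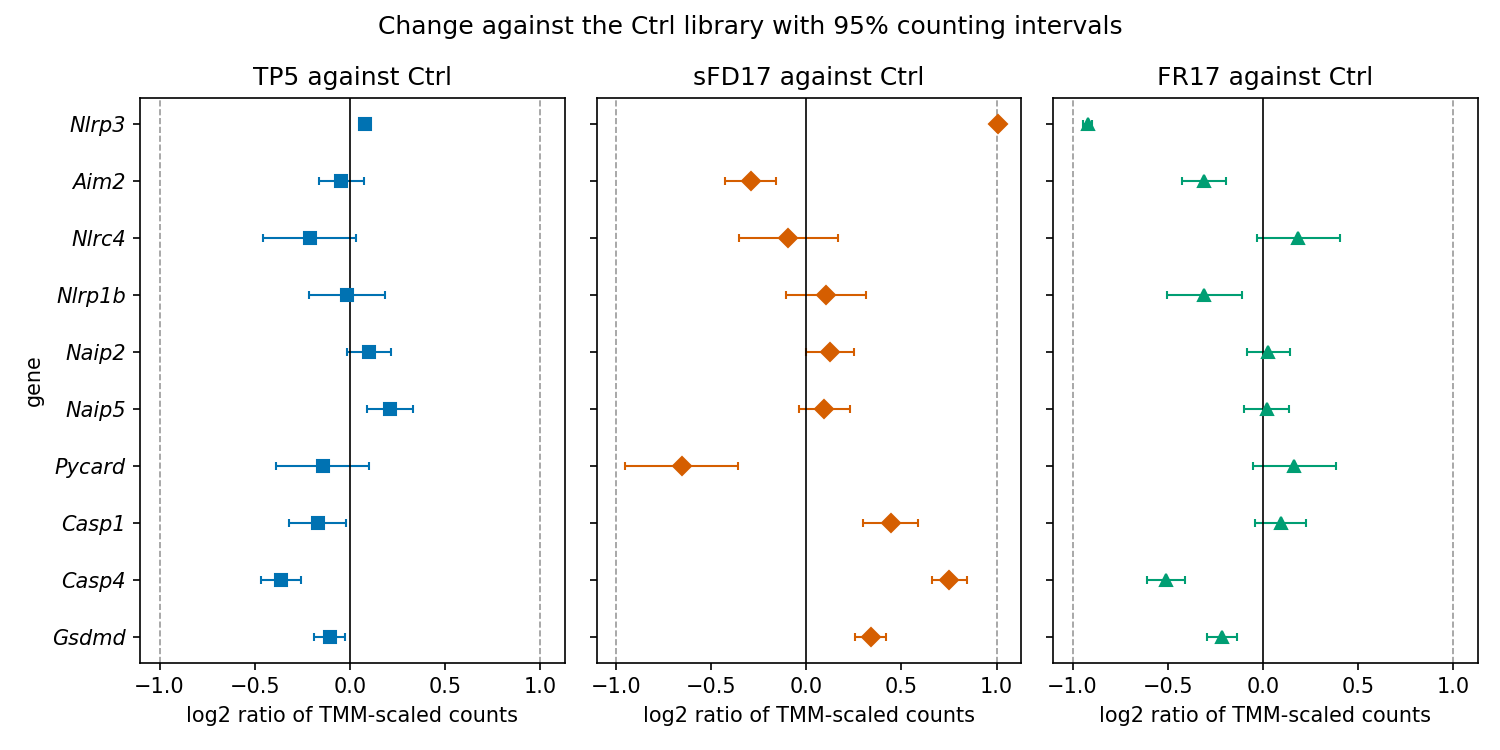
Log2 ratio to Ctrl of the TMM-scaled counts of each inflammasome gene, 1 panel per peptide; bars are exact 95% counting intervals and dashed lines mark 2-fold. In sFD17, Nlrp3 (1.01), Casp4 (0.75), Casp1 (0.44) and Gsdmd (0.34) lie to the right and Pycard (-0.65) and Aim2 (-0.29) to the left; in FR17, Nlrp3 (-0.92) and Casp4 (-0.51) lie to the left, and on library size alone Nlrp1b, Naip2 and Naip5 in sFD17, Gsdmd in FR17, and Aim2 and Nlrp1b in TP5, all of them at most 0.2146 from 0 on either scale, change sides.

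The 3 peptides were given at the same dose, from the same day, and collected on the same day, so their libraries were compared in 3 pairs. FR17 and sFD17 share the assembling part and the linker and differ in the order of the TP5 residues. Between them 2 of the 10 genes passed 2-fold, Nlrp3 and Casp4, both lower in FR17, beside 22.1% of all genes, and 3 passed 1.5-fold, beside 46.0%. Nlrp3 in FR17 was 0.263 (0.259 to 0.267) times sFD17, a log2 difference of -1.93, and Casp4 was 0.417 (0.391 to 0.445) times. Pycard went the other way, at 1.77 (1.46 to 2.15) times sFD17. Nlrp3 and Pycard kept these directions on library size alone, at -1.47 and 1.27, and so did Casp4, at -0.80, where it was no longer past 2-fold and Pycard was. Gsdmd in FR17 was 0.681 (0.645 to 0.720) times sFD17 and stayed lower on library size alone, at -0.09. Casp1 at 0.786 and Nlrp1b at 0.752 times sFD17 were lower in FR17 on the TMM scale and turned to log2 differences of 0.11 and 0.05 on library size alone. Nlrc4 was 1.21 (1.03 to 1.44) times sFD17, and its log2 difference was 0.74 on library size alone. For Aim2, Naip2 and Naip5 the intervals were 0.903 to 1.08, 0.862 to 1.01 and 0.871 to 1.04, so counting error alone leaves room for differences of about that size either way, and on library size alone these genes stood higher in FR17, at 0.44, 0.36 and 0.39 on the log2 scale.

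FR17 and TP5 share the TP5 sequence, with and without the assembling part. Of the 10 genes 1 passed 2-fold, Nlrp3, which was 0.4999 (0.492 to 0.508) times TP5 in FR17, beside 9.92% of all genes, and no further gene was past 1.5-fold, beside 24.5%. Its log2 difference of -1.0001 lies at the limit, and is -0.81 on library size alone. Nlrc4, Pycard and Casp1 were higher in FR17 than in TP5, at ratios of 1.32, 1.24 and 1.20, and Aim2 and Nlrp1b lower, at 0.832 and 0.817. Casp4 at 0.904, Gsdmd at 0.927 and Naip5 at 0.876 times TP5 were slightly lower, and all of these turned on library size alone. Naip2 had an interval of 0.883 to 1.03 and turned as well.

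The sFD17 and TP5 libraries differ in both the assembling part and the order of the residues. Casp4 was the 1 gene past 2-fold, at 2.17 (2.02 to 2.32) times TP5 in sFD17, beside 12.4% of all genes, and 3 of the 10 were past 1.5-fold, beside 31.8%. Nlrp3 was 1.90 (1.87 to 1.93) times, Casp1 1.53 (1.38 to 1.69) times and Gsdmd 1.36 (1.28 to 1.44) times TP5, and Pycard 0.702 (0.568 to 0.863) times. Aim2 was 0.842 (0.768 to 0.923) times TP5. For Nlrc4, Nlrp1b, Naip2 and Naip5 the intervals were 0.901 to 1.305, 0.939 to 1.25, 0.935 to 1.11 and 0.843 to 1.01, and the first 3 of these turned lower in sFD17 on library size alone. In both pairs with sFD17, Nlrp3, Casp1, Casp4 and Gsdmd were higher in sFD17 and Pycard lower on the TMM scale, with Casp1 against FR17 the exception on library size alone.

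**Figure D3:**
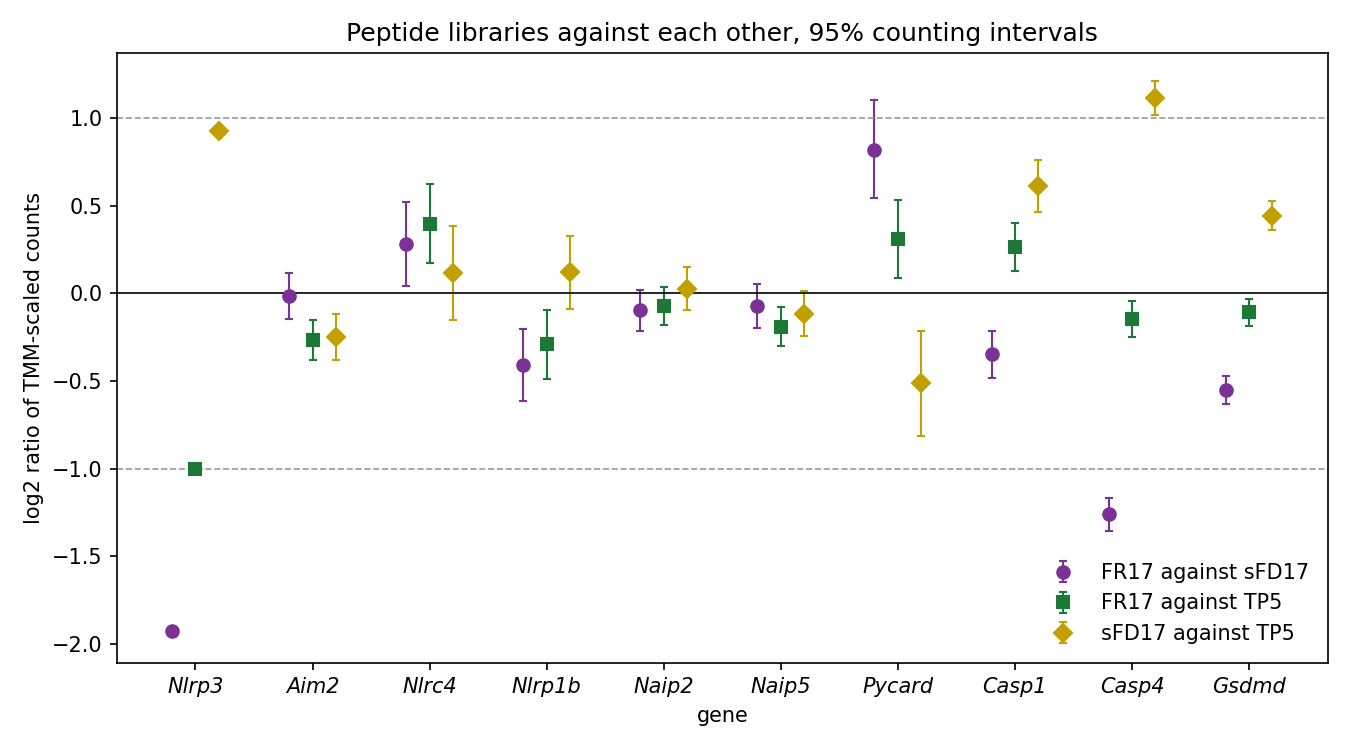
Log2 ratio between the peptide libraries for each inflammasome gene, with exact 95% counting intervals and dashed lines at 2-fold. Nlrp3 at -1.93 and Casp4 at -1.26 are the lowest values of FR17 against sFD17, and Pycard, at 0.81, is the highest; on library size alone Casp1, Nlrp1b, Aim2, Naip2 and Naip5 change sides in that pair, Casp4, Gsdmd, Naip2 and Naip5 in FR17 against TP5, and Nlrc4, Nlrp1b and Naip2 in sFD17 against TP5.

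The remaining genes of the pathway were taken from 6 lists with 56 genes, of which 51 were tested. The 5 genes not tested, Gsdma, Gsdma2, Gsdma3, Gsdmc and Gsdmc2, are gasdermins with at most 4 counts in a library. Against Ctrl, 13 of the 51 were past 2-fold higher in sFD17 and 1 lower, where 5.32% of all genes were past 2-fold higher and 6.47% lower. On library size alone 11 of the 51 were higher and 2 lower, and the share of all calls that were higher went from 45.1% to 27.4%. In TP5 there were 2 higher and 1 lower, and in FR17 1 higher and 1 lower, beside 8.17% and 7.48% of all genes past 2-fold either way. On library size alone FR17 had 3 higher and 1 lower, and the higher share of all calls there went from 52.2% to 77.5%. TP5 stayed at 2 higher and 1 lower. The median log2 fold change of the 51 in sFD17 was 0.30, beside -0.03 for all genes. Between FR17 and sFD17, 2 were past 2-fold higher and 17 lower in FR17, beside 22.1% of all genes either way. On library size alone these were 7 higher and 12 lower, and the higher share of all calls went from 51.1% to 84.3%. These lists were drawn up with earlier results of these data known, and their counts are descriptions.

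The regulators and licensing factors held most of these genes. Of 14, 7 were past 2-fold higher in sFD17, beside 5.32% of all genes, and 0 in TP5 or FR17. On library size alone 6 were higher and 1 lower in sFD17. The 7 are mainly interferon-inducible GTPases and relatives of the IFI200 family. Gbp2, a guanylate-binding protein that acts on bacterial membranes, had 1654, 978, 15599 and 1605 counts in Ctrl, TP5, sFD17 and FR17, and was 12.1 (11.5 to 12.7) times Ctrl in sFD17. Gbp5, which promotes NLRP3 assembly and whose promoter is printed above, had 304, 188, 2774 and 306 counts and was 11.7 (10.4 to 13.2) times Ctrl. Gm12250, the gene of IRGB10, was 8.11 (6.48 to 10.2) times Ctrl, and Gbp3, Ifi208 and Ifi213 had log2 fold changes of 1.35, 1.97 and 1.47 there. The seventh, Trim30a, a negative regulator of NLRP3, at 1.10 and at 0.88 on library size alone, is named after its value was seen. In TP5 and FR17, Gbp2 had log2 fold changes of -0.81 and -0.49 and Gbp5 of -0.74 and -0.43. The list also holds Nek7, the kinase that licenses NLRP3, and P2rx7, the ATP receptor upstream of it, neither of them past 2-fold against Ctrl, though P2rx7 in sFD17 went from -0.86 to -1.08 on library size alone. Both are named for their role.

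Of the 10 other sensors, 3 were past 2-fold higher and 1 lower in sFD17, beside 5.32% and 6.47% of all genes. In TP5 and in FR17, 1 was higher and 1 lower, beside 8.17% and 7.48% of all genes either way. Zbp1, a sensor of Z-form nucleic acids, had 619, 521, 3732 and 806 counts in Ctrl, TP5, sFD17 and FR17 and was 7.72 (7.09 to 8.42) times Ctrl in sFD17. Nlrc5, best known as an activator of MHC class I genes, had 1017, 861, 3530 and 1229 counts and was 4.44 (4.14 to 4.77) times Ctrl. Naip1 had 68, 24, 12 and 50 counts, with log2 fold changes of -1.48 in TP5 and -2.02 in sFD17, and shares transcript windows with the other Naip genes. Nlrp6, with 22, 29, 47 and 10 counts, and Nlrp10, with 3, 18, 3 and 13, passed 2-fold on few counts and are named after their values were seen. Mefv, the gene of pyrin, differed in the same direction as Nlrp3 in sFD17 and FR17, with log2 fold changes of 0.85 and -0.87, and was at -0.51 in TP5. It was not past 2-fold there and is named after its values were seen.

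Among the substrates and outputs, Il1b was the number 2 gene of the Ctrl library by counts, with 156498, 133841, 171491 and 129241 counts in Ctrl, TP5, sFD17 and FR17, or 9265, 7630, 12994 and 5630 CPM. Its level was high in sFD17 and low in FR17, with ratios to Ctrl of 1.40 (1.39 to 1.41) and 0.608 (0.603 to 0.612), and it was 0.433 times sFD17 in FR17, a log2 difference of -1.21 that came to -0.75, under 2-fold, on library size alone. Il18, with 388, 259, 190 and 725 counts, lay the other way, at log2 fold changes of -0.67 in sFD17 and 0.46 in FR17, and at 2.19 (1.87 to 2.59) times sFD17 in FR17. Il18bp, which encodes the protein that neutralizes interleukin-18, was past 2-fold, at 3.40 (2.98 to 3.89) times Ctrl in sFD17, and Il1rn, the gene of the interleukin-1 receptor antagonist, had log2 fold changes of 0.89 in sFD17 and -0.80 in FR17, values seen before it was named. Il1b and Il18 thus lay in opposite directions, while Il1a, the other interleukin-1 gene of the list, stood at log2 fold changes of 0.10 in sFD17 and -0.37 in FR17 and had a log2 difference of -0.001 between FR17 and sFD17 on library size alone. In TP5 both Il1b and Il18 lay below Ctrl, with log2 fold changes of -0.28 for Il1b and -0.63 for Il18.

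**Figure D4:**
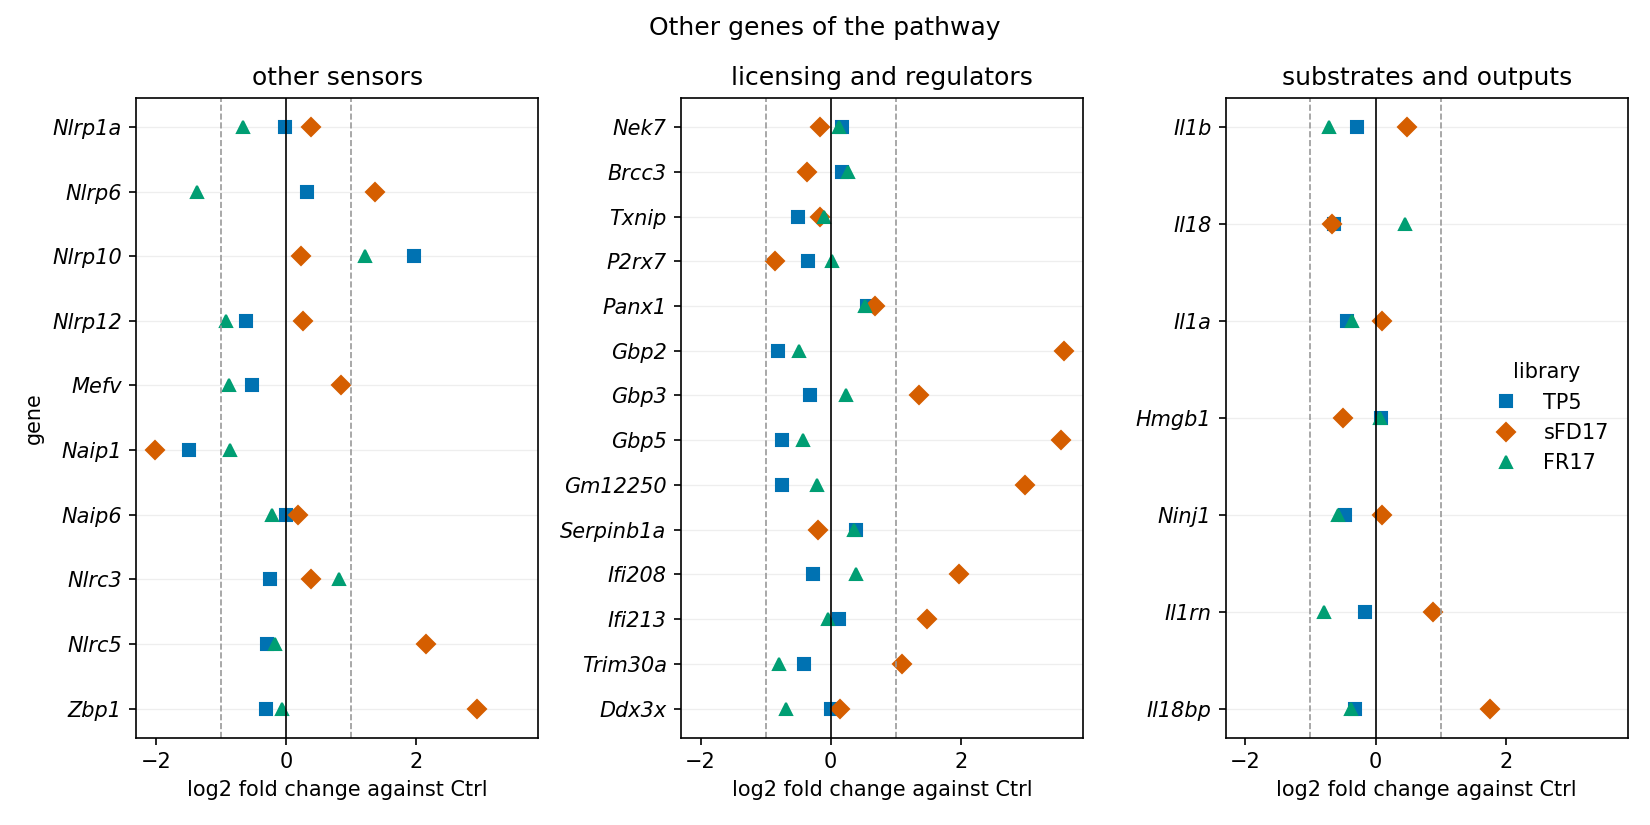
Log2 fold change against Ctrl of the other sensors, the regulators and the substrates, with 1 symbol per peptide library and dashed lines at 2-fold. The sFD17 values of Gbp2 (3.59), Gbp5 (3.54), Gm12250 (2.99), Zbp1 (2.94) and Nlrc5 (2.15) lie far to the right, while in TP5 and FR17 these genes lie between -0.81 and -0.06, and on library size alone Zbp1, Nlrc5 and Gm12250 turn higher in FR17, at 0.18, 0.08 and 0.03.

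The libraries also differed in the summed level of lists of cell type markers, and in bulk samples fewer cells of a type and less RNA per cell cannot be told apart. The 12 neutrophil markers summed to 33511 CPM in Ctrl, 37016 in TP5, 44047 in sFD17 and 30077 in FR17, with all 12 higher than Ctrl in sFD17 and 5 of 12 in FR17. As plain shares of the library they were 3.30%, 3.78%, 3.74% and 3.52%, so the lower sum in FR17 and the rank of sFD17 over TP5 turn with the scale, where 9 of 12 were higher in FR17. The 11 macrophage markers summed to 9675, 7318, 3552 and 12105 CPM, with 0 of 11 higher in sFD17 and 10 of 11 in FR17. The 7 NK cell markers summed to 28.0, 17.0, 21.3 and 89.7 CPM and the 7 T cell markers to 47.1, 37.5, 26.7 and 80.9 CPM, all higher than Ctrl in FR17. Summed monocyte markers were 0.920 times Ctrl in sFD17 and 1.08 times in FR17 on the TMM scale. Singly they differed in sFD17, with 1 of 5 higher and 4 lower and log2 fold changes from -1.91 to 1.42. In FR17 5 of 5 were higher. The epithelial list was 2.05 times Ctrl in sFD17, with 3 of 5 genes higher. No marker of these lists was at 0 in any library. The order of the libraries by neutrophil sum on the TMM scale, sFD17, TP5, Ctrl and FR17, is that of Nlrp3, though not by plain share. The reverse order, FR17, Ctrl, TP5 and sFD17, is that of Pycard and of the macrophage sum, which took 0.954%, 0.748%, 0.302% and 1.42% of the counts of Ctrl, TP5, sFD17 and FR17. Il18 had this order too, with a log2 difference of only -0.04 between sFD17 and TP5. The interferon response genes summed to 1266, 1038, 4839 and 839 CPM, with 10 of 10 higher than Ctrl in sFD17. The part of cell composition and of the interferon response genes in the levels of the 10 inflammasome genes and of the other pathway genes was not tested.

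**Figure D5:**
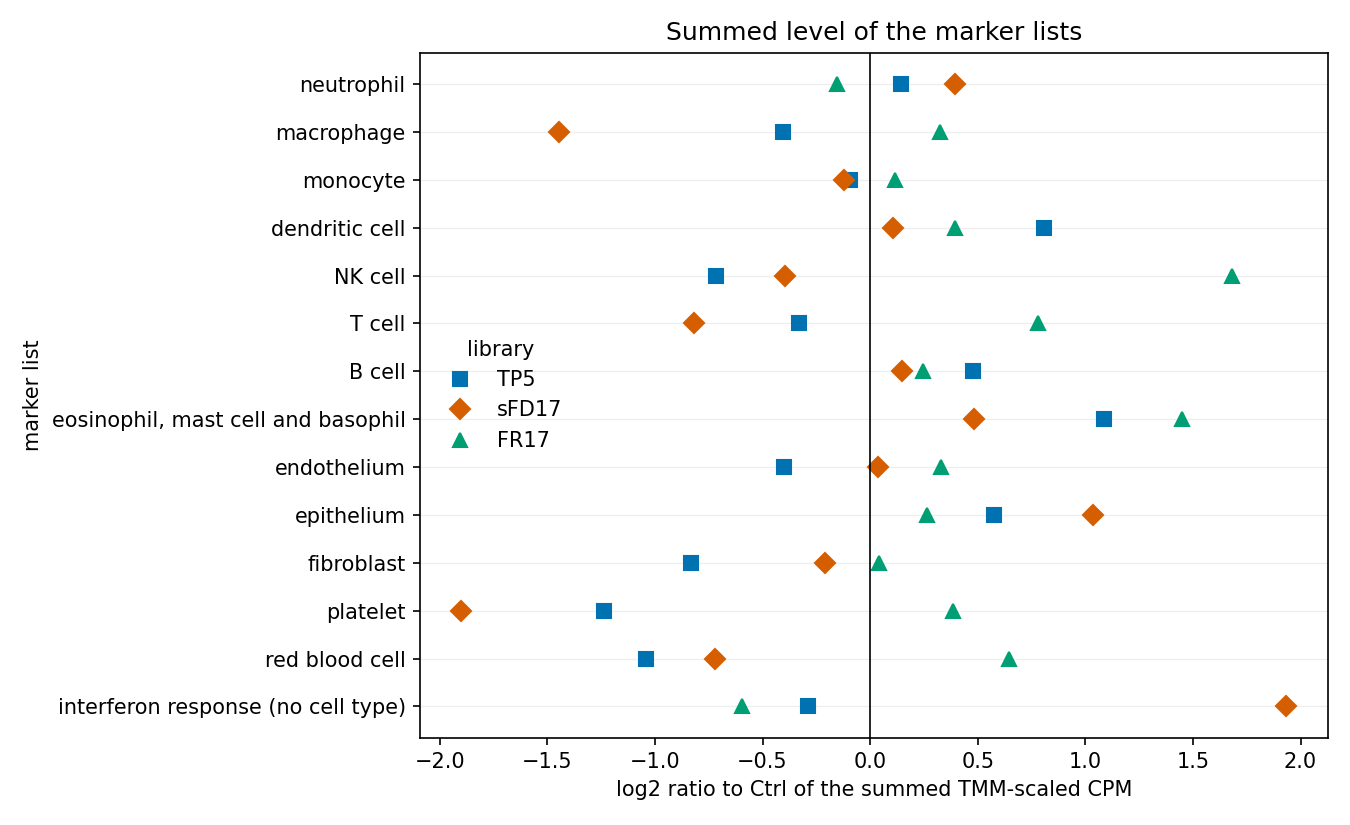
Log2 ratio to Ctrl of the summed TMM-scaled CPM of each marker list, with 1 symbol per peptide library. In sFD17 the interferon response list stands at 1.93, the neutrophil list at 0.39 and the macrophage list at -1.45; in FR17 the NK cell list stands at 1.68 and the neutrophil list at -0.16, which turns positive on library size alone.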

How the data were processed

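Sorted CD11b+Ly6g+ MDSCs gave 4 libraries, 1 per group, each from 10 to 12 mice. The authors deposited whole-number read counts per gene, not normalized, with coordinates that match GENCODE M21 on GRCm38 for all 10 inflammasome genes. The library kit kept the strand, and the strand setting of the counting is not given in the sources used here. The submitters' processing notes name HISAT2 2.0.5, StringTie 1.3.3b, featureCounts 1.5.0-p3 and edgeR 3.18.1. Depth was 15543071 to 19638228 counts, and a floor of 3 counts is 0.131 to 0.227 CPM.

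For the 100 symbols on more than 1 row, only the most abundant row was kept. The 16367 genes that reached 10 counts in any library were scaled with TMM in edgeR 4.0.16 under R 4.3.3, and compared as log2 CPM with a prior count of 2 in 6 pairs of libraries. Ratios carry exact Clopper-Pearson 95% intervals of the pair of counts. With 1 library a group, edgeR's quasi-likelihood test could not be fitted, and no difference in the report was tested. edgeR's exact test, with a trended dispersion estimated over the 4 libraries as if they were 1 group, served as an alternative only, and it compares libraries and not conditions. Promoters came from RefSeq, for 9 of the 10 genes. Levels per kilobase used the deposited gene length.

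The members were taken by name and no threshold on values was applied, but they and the gene lists were chosen with earlier results of these data known. Beside the 10 members and Il1b and Il18, each list's genes past 2-fold against Ctrl with at least 50 counts in either library were named, at most 6 a list by size, and the 3 genes nearest to each member past 2-fold against Ctrl. Irgb10, Pydc3 and Pydc4 were read as Gm12250, Ifi208 and Ifi213, their symbols in the table. Alternatives were library size alone, DESeq2 1.42.0 size factors, a prior count of 0.5, no filter, at least 10 counts in every library, a 1.5-fold limit and edgeR's exact test. The library size alternative for the other pathway genes and for the order of the libraries was added after seeing the data.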

Additional observations from a re-analysis of the deposited data

How the results depend on the processing

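The number of the 10 genes past 2-fold depended on the scale where Nlrp3 or Casp4 sits near the limit. For sFD17 against Ctrl it went from 1 to 0 with library size alone, without a filter and by edgeR's exact test at an unadjusted p under 0.05, and to 3 at 1.5-fold. For FR17 against Ctrl it went from 0 to 1 at 1.5-fold. For FR17 against TP5 it went from 1 to 0 with library size alone, without a filter, with at least 10 counts in every library and by the exact test, and for sFD17 against TP5 from 1 to 0 with library size alone and to 3 at 1.5-fold. Between FR17 and sFD17 the count was 2, or 3 at 1.5-fold, but on library size alone the 2 genes were Nlrp3 and Pycard (1.27), and Casp4 (-0.80) was no longer past 2-fold. Of the genes whose interval excluded 1, library size alone reversed Nlrp1b (0.0499) and Casp1 (0.1127) in FR17 against sFD17, Naip2 in sFD17 against Ctrl (-0.0892), Gsdmd in FR17 against Ctrl (0.0308), and Naip5 (0.0034), Casp4 (0.0479) and Gsdmd (0.0844) in FR17 against TP5. With it the median of all genes stood at 0.05, -0.23, 0.26, 0.52, 0.17 and -0.30 in TP5, sFD17 and FR17 against Ctrl, FR17 against sFD17, FR17 against TP5 and sFD17 against TP5. In that order all genes past 2-fold numbered 1338, 1930, 1225, 3611, 1623 and 2026. They numbered 3095, 4211, 2890, 5651, 3173 and 3761 without a filter, 503, 914, 447, 2315, 714 and 980 with at least 10 counts in every library, 3407, 4750, 3712, 7532, 4005 and 5199 at 1.5-fold, and 324, 791, 305, 2073, 601 and 760 by the exact test, whose dispersion was pooled over the 4 differently treated libraries and so holds their differences. Of the 60 fold changes of the 10 genes, 57 moved within their counting interval with DESeq2 size factors, 60 with a prior count of 0.5 and 16 with library size alone. No paired analysis was possible because each group has 1 library, and no library could be left out for the same reason. Pycard, with 142 to 436 counts, and Nlrc4, with 213 to 450, are the members whose precision depth limits most.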

Other observations

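The remaining pathway lists hold genes downstream of or beside pyroptosis. Of 6 tested gasdermin and gasdermin-cleaving protease genes, Elane, the gene of neutrophil elastase, was past 2-fold against Ctrl, at 2.50 (1.68 to 3.81) times in TP5 and 2.16 (1.40 to 3.38) times in sFD17, with 35, 91, 59 and 91 counts in Ctrl, TP5, sFD17 and FR17. On library size alone its log2 fold change was 0.86 in sFD17, no longer past 2-fold, and 1.14 in FR17, where the TMM value was 0.90. Gsdme, the gasdermin cut by caspase-3, had 867, 866, 752 and 879 counts. Of 8 apoptotic and necroptotic genes, Mlkl, the effector of necroptosis, was past 2-fold, at 2.39 (1.73 to 3.33) times Ctrl in sFD17. Past 2-fold either way were 8.17% of all genes in TP5 and 11.8% in sFD17. None of the 6 genes of the ESCRT-III machinery, which removes damaged membrane, was past 2-fold against Ctrl, and Vps4b in FR17 was 0.499 (0.475 to 0.524) times sFD17, a log2 difference of -1.0011 at the limit that came to -0.54 on library size alone, in a pair with 22.1% of all genes past 2-fold.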
